A study of Mus musculus with 36 samples.

Results

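The genes described here are Piwil2 and 9 other genes of the PIWI-interacting RNA (piRNA) pathway, which were Piwil4, Tdrd1, Tdrd5, Tdrd9, Tdrd12, Tdrkh, Mael, Asz1 and Ddx4. They were selected by gene name. Piwil2 was selected on measured values of these data, its KO to WT difference on days 3, 5 and 7 of reprogramming, and the other members were selected as pathway partners around it. For this reason, the members' KO to WT values on those days are given as a description, with no test. Of the 10 members, 9 were among the 21442 genes of the count table, and Asz1 was not analysed here.

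The series holds 36 bulk poly(A) RNA libraries, with 3 replicates for each of the 2 genotypes at each of 6 stages, which makes 12 groups. WT cells (Control in the labels) were MEFs, reprogramming cells and iPSCs that had received a non-targeting control sgRNA, and ESCs of the parental line Clone J, and Zfp266-KO cells had received a guide against Zfp266, a KRAB zinc-finger gene. Both genotypes of the transduced cells expressed Cas9. The stages were P2 embryonic fibroblasts (MEFs) (strain 129 in the labels) from E12.5 embryos, which by the study's methods were chimeras made by aggregating the engineered ESCs with host morulae, harvested 96 h after transduction, then MEF reprogramming at D3, D5 and D7, induced pluripotent stem cells (iPSCs) of the 129 strain and embryonic stem cells (ESCs). Reprogramming cells carried a doxycycline-inducible transgene of Myc, Klf4, Oct4 and Sox2, were plated among wild-type MEFs of the 129 strain, and were sorted for the reporter of the transgene. KO libraries of MEFs and of D3, D5 and D7 were therefore populations of transduced cells in which not every cell need be a knockout, whereas iPSCs were single-cell clones lifted at D15, and KO ESCs were genotyped single-cell clones compared with 3 samples of their 1 parental line. Nothing in the labels says that the 3 replicates of MEFs, of each day or of WT ESCs came from separate cultures, so their p-values measure only the spread between these samples. In bulk RNA, fewer cells of a type and less RNA per cell cannot be told apart.

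The guide against Zfp266 read 5′ to 3′ in lower case as follows, and lay in the sense direction at chr9:20505091-20505109 (GRCm38), in exon 7 of 10 merged exons, next to an AGG PAM. It is shown because it defines the KO groups.
Zfp266 guide: cagaagaatctataccgag
Zfp266 RNA remained in KO libraries. In MEFs it was at 2924, 3096 and 2828 normalised counts in WT replicates 1 to 3 and at 3235, 3293 and 3072 in KO, and across all other groups it lay between 1266 and 2817. The genotypes overlapped in MEFs, at D5 and at D7. At D3 KO libraries (1824, 2050 and 1856) lay above WT (1417, 1598 and 1580). In iPSCs KO clones (1954, 1892 and 2212) lay below WT (2529, 2817 and 2594). In ESCs the highest KO library (2222) lay just below the lowest WT library (2238). A gene count of this kind does not check a small insertion or deletion made by Cas9, so it does not test the labels.

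PIWI proteins are the germline branch of the Argonaute family. Loaded with piRNAs they cut transposon transcripts in the cytoplasm and, in the nucleus of fetal male germ cells, direct DNA methylation to transposons. Several other pathway proteins carry Tudor domains, which bind methylated arginines of PIWI proteins and hold them in granules close to mitochondria, where piRNA precursors are processed. The pathway is known from the germline, where loss of its members in mice leads to male sterility.

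Promoter windows of 300 bases, from 250 bases before to 50 after a start site (RefSeq, GRCm38.p6), were found for 9 members in 13 windows, and none for Piwil2. On both strands they were searched for CACGTG, the E box read by MYC and MAX, for GGCGGGA, a motif of E2F factors, and for GGGTGTG, a motif of KLF factors. No match of 1 motif overlapped that of another. CACGTG was found in 5 of the 13 windows, of 4 members (Tdrd1, Tdrd9, Mael and Ddx4), against 9.21% of all 16770 windows, GGCGGGA in 2 of the 13 windows (Mael and Ddx4) against 18.7%, and GGGTGTG in none against 8.84%. The 2 Tdrd1 windows with CACGTG overlap and hold the same match. A match is a description of the letters, not of binding. The windows of Tdrd1, Mael, Ddx4 and Tdrd12 are shown, as these genes had the most contrasting courses below, with motif letters in capitals.
Tdrd1 (chr19:56825959-56826258, plus strand): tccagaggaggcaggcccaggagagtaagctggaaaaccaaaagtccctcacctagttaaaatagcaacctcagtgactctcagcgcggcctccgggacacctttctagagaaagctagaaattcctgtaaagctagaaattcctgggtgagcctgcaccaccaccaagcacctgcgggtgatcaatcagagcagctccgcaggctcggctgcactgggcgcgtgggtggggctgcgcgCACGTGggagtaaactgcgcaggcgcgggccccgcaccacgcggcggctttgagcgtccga
Mael (chr1:166238695-166238994, minus strand): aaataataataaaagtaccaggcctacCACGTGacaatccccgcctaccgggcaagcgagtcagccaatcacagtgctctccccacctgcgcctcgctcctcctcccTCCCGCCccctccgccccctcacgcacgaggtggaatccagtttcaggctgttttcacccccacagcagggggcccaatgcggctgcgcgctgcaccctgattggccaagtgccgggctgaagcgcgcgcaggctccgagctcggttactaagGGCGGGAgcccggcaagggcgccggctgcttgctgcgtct
Ddx4 (chr13:112652261-112652560, minus strand): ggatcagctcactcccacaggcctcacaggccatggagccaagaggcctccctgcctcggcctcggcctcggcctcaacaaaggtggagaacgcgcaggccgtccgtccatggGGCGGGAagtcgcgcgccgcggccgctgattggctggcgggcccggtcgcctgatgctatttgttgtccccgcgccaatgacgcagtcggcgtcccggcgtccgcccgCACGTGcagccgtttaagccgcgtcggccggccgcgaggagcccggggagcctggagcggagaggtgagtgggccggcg
Tdrd12 (chr7:35537666-35537965, minus strand): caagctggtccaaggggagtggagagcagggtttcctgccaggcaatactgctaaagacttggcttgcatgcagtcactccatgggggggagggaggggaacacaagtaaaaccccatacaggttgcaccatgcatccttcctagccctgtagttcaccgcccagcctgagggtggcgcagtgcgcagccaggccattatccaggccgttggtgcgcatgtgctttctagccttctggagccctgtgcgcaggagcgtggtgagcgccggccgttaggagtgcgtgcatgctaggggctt
Counted from the start site, the first letter of the E box lay at -11 in Tdrd1, at -29 in Ddx4 and at -223 in Mael. Tdrd12 held none of the 3 motifs in either of its windows. CpG dinucleotides numbered 38 in the Ddx4 window, 24 in Mael, 20 in Tdrd1 and 11 in Tdrd12, beside a median of 18 over all windows (quartiles 8 to 27).

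Total counts per library ranged from 19224103 to 39610939. Values below are normalised counts, that is read counts divided by the size factor of the library, and a library with no read allows up to 3 reads, which is 2.31 to 5.22 normalised counts. Markers matched the stage labels. The summed level of 10 pluripotency genes was 69.7 to 86 in WT MEFs, with Utf1 and Dppa4 at 0 in all 3 libraries, and 117780.0 to 118949 in WT ESCs, whereas 10 fibroblast genes summed to 474798 to 491415 in WT MEFs and 359 to 406 in WT ESCs. iPSC WT replicate 3 stood above the 2 other WT iPSC clones for Tdrd5, Tdrd12, Mael, Piwil4, Tdrd9, Tdrkh and Ddx4. It stood below them for Piwil2 and Tdrd1, so it was the extreme WT clone for every measured member. Results that turn on it are given with and without it. A DEG here had a DESeq2 FDR < 0.05 and log2FC > |1|, and log2FC is followed by its standard error.

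Piwil2, a cytoplasmic PIWI protein that cuts transposon RNA and takes part in piRNA amplification, lies at chr14:70372477-70429383 (GRCm38) on the minus strand with 24 merged exons. It was not detected in WT MEFs, came on during reprogramming and was at its WT peak at D7. Its reads were 0 in all 3 WT MEF libraries, and its level was 33, 14 and 14.5 at D3, 195, 251 and 210.3 at D5, 596, 669 and 411 at D7, 316, 219 and 135 in iPSCs and 231, 239 and 208 in ESCs. D3, D5 and D7 WT libraries did not overlap each other, while iPSCs, ESCs and D5 did. The level at D3 was at least 3.93-fold higher than in MEFs, counted against a floor of 3 reads per library. It rose by a log2FC of 3.40 ± 0.30 from D3 to D5 (FDR 4.36e-27) and of 1.35 ± 0.24 from D5 to D7 (FDR 8.89e-07), and was lower in iPSCs than at D7 (log2FC -1.32 ± 0.24, FDR 1.24e-07). Between WT ESCs and WT iPSCs the log2FC was 0.02 ± 0.25 (FDR 0.984).

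In KO cells the same course ran higher. At D3 the KO libraries held 220.5, 191 and 165 normalised counts, at D5 1694, 2092 and 1595 and at D7 2810.5, 2721 and 1801. Every KO library exceeded every WT library of its day, and the lowest KO over the highest WT library was 5.01-fold at D3 and 6.36-fold at D5. As a description, with no test, the log2FC was 3.22 ± 0.30 at D3, 3.04 ± 0.24 at D5 and 2.13 ± 0.24 at D7. KO cells at D3 stood at 85.1% of the WT ESC mean, against 9.09% in WT cells, and at D5 at 794% against 96.9%. The 12 group means ordered as D7 KO and D5 KO, which overlapped each other; then D7 WT, iPSC KO and ESC KO, each overlapping its neighbour; then ESC WT, iPSC WT, D5 WT and D3 KO, likewise overlapping; then D3 WT; and last MEF KO and MEF WT.

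**Figure D1:**
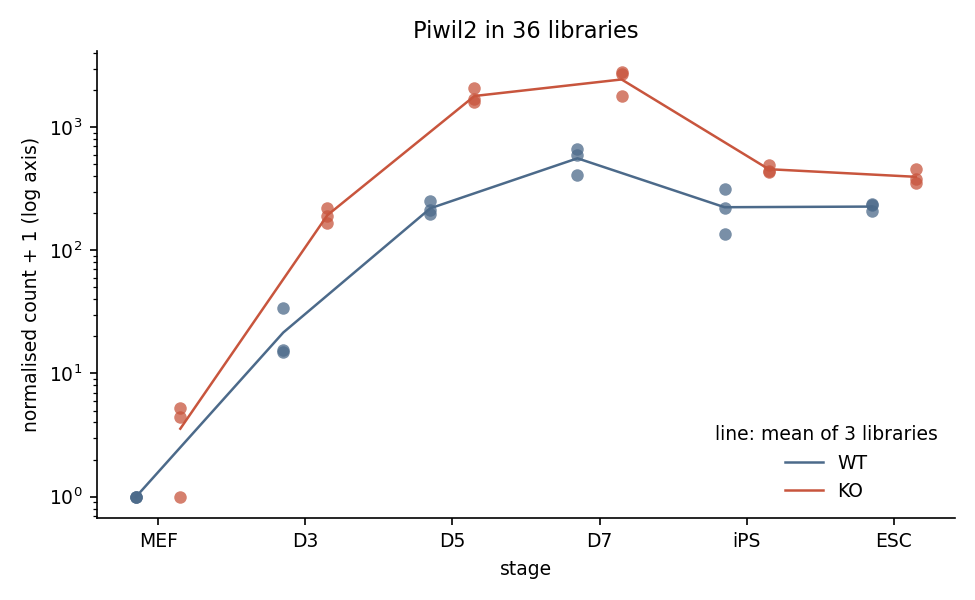
Piwil2 in each of the 36 libraries, as normalised count + 1 on a log axis by stage, with 1 point per WT or KO library and a line at the mean of each group. KO libraries lay above WT libraries at D3, D5, D7, in iPSCs and in ESCs, and in MEFs 2 of 3 KO libraries held a few reads.

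In MEFs, before reprogramming, Piwil2 had 3, 0 and 4 reads in the KO replicates and none in WT, which is 3.45, 0 and 4.24 normalised counts and at the limit of what this depth can detect (FDR 0.527). In iPSCs and ESCs, which are other samples than those of D3 to D7, Piwil2 was also higher in KO cells. KO iPSC clones held 489, 442 and 435, all above the WT clones (log2FC 1.03 ± 0.24, FDR 0.000567), and KO ESC clones held 376, 352 and 456, all above the WT ESCs, with a log2FC of 0.81 ± 0.24 (FDR 0.0156) that did not reach 1. In iPSCs the log2FC fell to 0.77 without iPSC WT replicate 3 (FDR 0.01) and to 0.97 without iPSC KO replicate 1 (FDR 0.00948), both under the threshold on log2FC.

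Piwil4 (chr9:14696230-14740733) codes for the nuclear PIWI protein that directs DNA methylation of transposons in fetal male germ cells. It had 0 to 5 reads per library in MEFs and up to D7, where all WT libraries had 0, and was expressed in pluripotent cells of both genotypes. WT iPSCs held 30.2, 34.4 and 53.8 and WT ESCs 21.1, 45.6 and 29.5, and the WT iPSC level was at least 12.8-fold above D7. KO iPSCs held 19, 28.6 and 45.5, overlapping WT (log2FC -0.35 ± 0.53, FDR 0.742). Its exons share 137 bases with Gm10706 on the opposite strand, and whether the counting used strand was not stated.

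Tdrd1 (chr19:56826209-56870012), a Tudor scaffold that binds Piwil2, was highest during reprogramming and low in MEFs and in pluripotent cells. In WT it was at 31.3, 37.9 and 43.5 in MEFs, 232, 258 and 229.7 at D3, 295, 321 and 263 at D5, 193, 211 and 259 at D7 and 30.2, 31.9 and 19.5 in iPSCs, with all D3 libraries above all MEF libraries and all iPSC libraries below those of D7. It rose from MEFs to D3 (log2FC 2.64 ± 0.20, FDR 2.32e-37) and fell from D7 to iPSCs (log2FC -3.02 ± 0.20, FDR 7.21e-51). At D7 the KO libraries were at 115, 123 and 143, all below WT, with a log2FC of -0.80 ± 0.15 as a description. In iPSCs and ESCs the FDR of the KO to WT difference was 0.297 and 0.437.

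Tdrd5 (chr1:156255296-156303664), needed for feeding piRNA precursors into processing, came on at D3 with Tdrd1. WT MEFs held 3.48, 0 and 1.06, D3 cells 60.5, 45 and 41.7, D7 cells 52.7, 36.2 and 37, iPSCs 76, 49.1 and 169.8 and ESCs 114, 111 and 122. It rose from MEFs to D3 (FDR 3.72e-08), and with only 3 reads over the WT MEF libraries the ratio of 35.8 had a counting interval from 12 to 175 (exact, 95%). From D7 to iPSCs the log2FC was 1.22 ± 0.38 (FDR 0.00208), which rested on iPSC WT replicate 3: without it the log2FC was 0.57 and the FDR 0.142. At D7 KO cells held 20.1, 18.4 and 19.1, all below WT, with a log2FC of -1.13 ± 0.41 as a description, and at this day Tdrd5 and Tdrd1 were lower in KO cells while Piwil2 was higher.

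Tdrd9 (chr12:111971559-112068854), a helicase that works with Piwil4, was low in every group, between 1.75 and 32.3 normalised counts. WT and KO D7 libraries stood at 8.11, 11.1 and 6.17 and 4.02, 1.75 and 1.82 (log2FC -1.77 ± 0.68, a description). In iPSCs the direction was opposite. WT clones held 8.64, 3.44 and 12.1 and KO clones 29, 14.8 and 32.3, a log2FC of 1.66 ± 0.48 (FDR 0.00627). This call was lost when only the compared groups were fitted (FDR 0.169) or without iPSC WT replicate 2 (FDR 0.0797).

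Tdrd12 (chr7:35469098-35537745), a helicase with Tudor domains that acts in piRNA amplification, had the highest level per kilobase of exon in iPSCs and ESCs of all members, at 249 ± 92.9 and 354 ± 27.8 normalised counts per kb in WT (mean ± SD, n = 3). It was at 15.2, 15.1 and 3.09 in WT D7 cells and at 907, 791 and 1540.2 in WT iPSCs (log2FC 6.60 ± 0.45, FDR 2.66e-48). KO D7 cells held 19.1, 32.4 and 29, all above WT, with a log2FC of 1.27 ± 0.47 as a description. In iPSCs the KO clones held 1292, 847 and 2657, which overlapped WT (FDR 0.325). The rise from D3 to D5 in WT (log2FC 2.21 ± 0.80, FDR 0.0274) came from a few reads, 7.77, 4.13 and 10.4 at D5, and was not called by edgeR (FDR 0.177), nor without D3 WT replicate 1, D3 WT replicate 3 or D5 WT replicate 3 (FDR 0.105, 0.0991 and 0.109).

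Tdrkh (chr3:94413273-94434668), which anchors PIWI proteins at mitochondria, and Ddx4 (chr13:112598333-112652475), the Vasa helicase that marks germ cells, were expressed in MEFs and fell as reprogramming began. Tdrkh went from 130.4, 105 and 127 in WT MEFs to 22.9, 16 and 21.3 at D3 (log2FC -2.59 ± 0.30, FDR 1.24e-17) and 11.6, 6.19 and 5.2 at D5 (log2FC -1.38 ± 0.41, FDR 0.00566). The second fall was lost when only the compared groups were fitted (FDR 0.0702) and without D5 WT replicate 3 (FDR 0.0501). WT iPSCs stood at 29.4, 32.7 and 44.5, above D7 (log2FC 1.50 ± 0.35, FDR 3.2e-05), and WT ESCs were still below MEFs (log2FC -1.57 ± 0.27, FDR 8.6e-09). Tdrkh shares 2255 exon bases with Oaz3 on the opposite strand, so reads of the 2 genes may be mixed.

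Ddx4 fell further. WT MEFs held 181, 226 and 229, D3 cells 17.4, 16 and 8.72 and D7 cells 8.11, 7.05 and 10.3, and the fall from MEFs to D3 had a log2FC of -3.92 ± 0.28 (FDR 1.1e-44). WT iPSCs were back at 181, 173 and 219.9 (log2FC 4.50 ± 0.33 over D7, FDR 1.41e-40), and WT ESCs at 256, 256 and 228 (log2FC 0.21 ± 0.18 against MEFs, FDR 0.265). Of 12 other germ cell genes in the table, 10 had reads in WT MEFs, Stra8 and Tex101 were at 0, and their sum was 106 to 119.7. At D7 KO cells held 12, 19.3 and 21.8, all above WT (log2FC 1.08 ± 0.38, a description).

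Mael (chr1:166201201-166238747), a protein of germline granules that is needed for transposon silencing, was at or under the floor in all groups up to D5 and in WT at D7, and was expressed in pluripotent cells. WT iPSCs held 66.5, 86.1 and 211, at least 39.2-fold above D7, and WT ESCs 215, 189 and 164. In KO cells it was higher in both, at 551, 183 and 431 in iPSCs (log2FC 1.68 ± 0.46, FDR 0.00384) and 399, 665 and 544 in ESCs (log2FC 1.50 ± 0.46, FDR 0.0178). KO and WT ESC libraries did not overlap, whereas in iPSCs KO replicate 2 overlapped WT replicate 3. The iPSC call was lost without iPSC KO replicate 1 (FDR 0.0706), and in ESCs 5 of the 6 fits with 1 ESC library fewer no longer called Mael, those without any 1 of the 3 WT samples or without KO replicate 2 or 3 (FDR 0.0583 to 0.139).

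**Figure D2:**
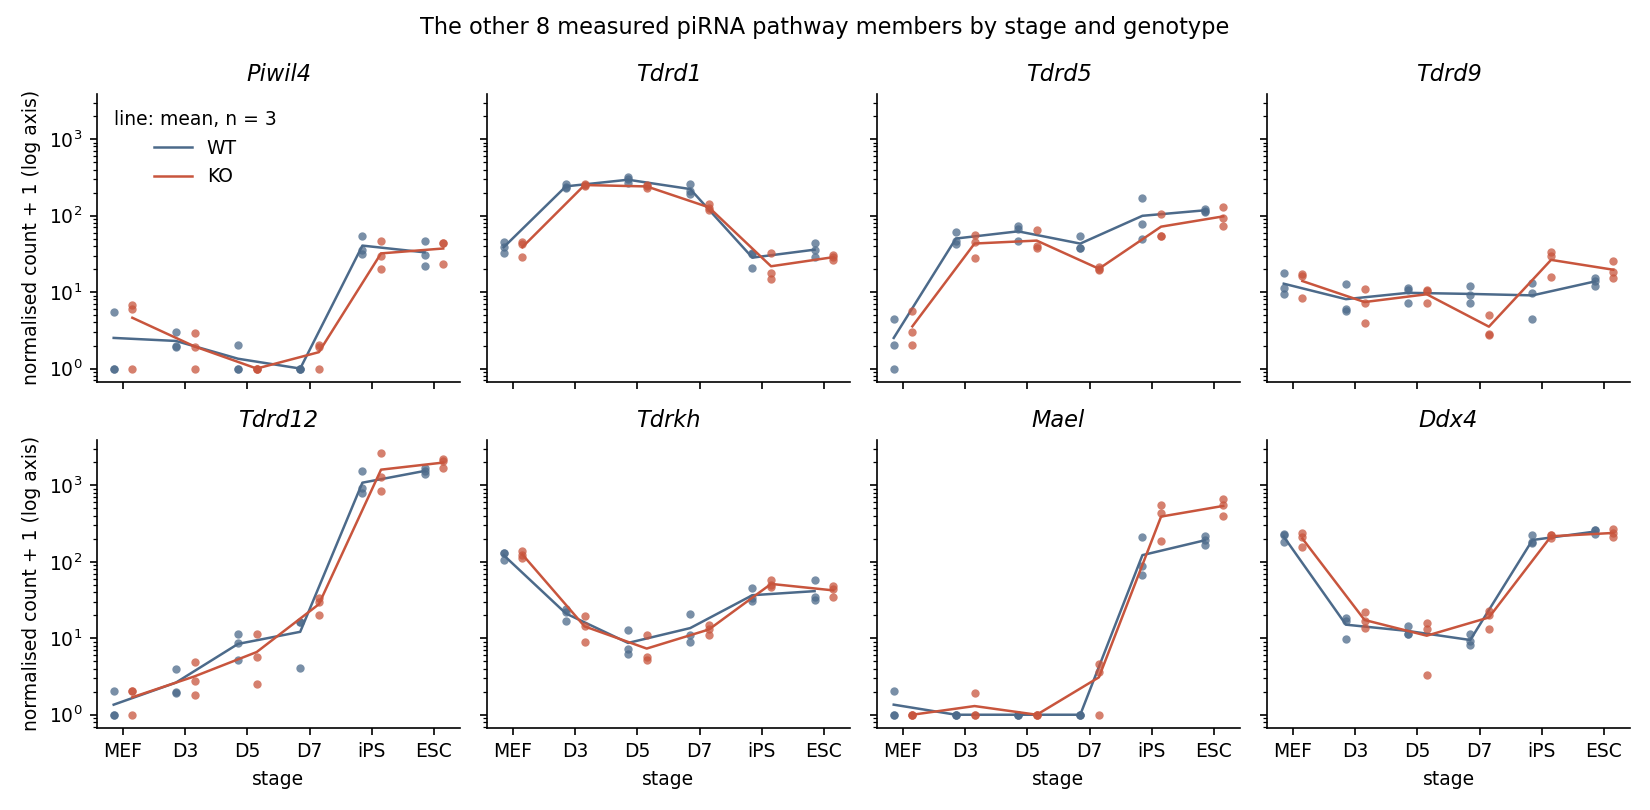
Normalised count + 1, on a log axis, of the other 8 members in each library by stage, with 1 panel per gene, 1 point per WT or KO library and a line at the mean of each group. Tdrkh and Ddx4 started high in MEFs, Tdrd1 was highest at D3 to D7, and Piwil4, Tdrd12 and Mael appeared in iPSCs and ESCs.

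Stage by stage in WT cells, members were called as DEGs as follows. From MEFs to D3, 5 of 9 changed, 3 up (Piwil2, Tdrd1 and Tdrd5) and 2 down (Tdrkh and Ddx4), against 44.9% of all 21436 genes tested. From D3 to D5, 3 of 9 changed, against 6.77%, and from D5 to D7 1 of 9, Piwil2, against 5.81%. From D7 to iPSCs, 8 of 9 changed, 6 up and 2 down (Piwil2 and Tdrd1), against 45.0%. Between WT MEFs and WT ESCs 6 of 9 differed, 5 higher in ESCs and Tdrkh lower, against 55.4%. WT ESCs and WT iPSCs had 0 calls among the 2 members that kept an FDR after independent filtering, against 0.275%, with 1 member at an unadjusted p under 0.05 in DESeq2 (Ddx4) and 0 calls with edgeR. As shares of the 9 members these counts were 55.6% from MEFs to D3, 33.3% from D3 to D5, 11.1% from D5 to D7, 88.9% from D7 to iPSCs and 66.7% between MEFs and ESCs. The median log2FC of the 9 members from D7 to iPSCs was 1.50, against 0.01 over all genes tested. From D3 to D5 only 1 member, Piwil2, was called when only the compared groups were fitted or without D5 WT replicate 3, and between ESCs and iPSCs 1 was called without iPSC WT replicate 3, Mael (log2FC 1.31, FDR 0.0259).

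Per kilobase of exon, the ranking of the members turned over along the series. In WT MEFs the highest mean levels were Ddx4 at 70.3 ± 8.94 and Tdrkh at 19.7 ± 2.31 normalised counts per kb. At D3 and D5 Tdrd1 led with 44.1 ± 2.89 and 53.9 ± 5.3 per kb, and at D7 Piwil2 with 106 ± 25.2. In WT iPSCs and ESCs, Tdrd12 was followed by Mael at 69.9 ± 45.1 and 109 ± 14.6, Ddx4 at 63.5 ± 8.29 and 81.9 ± 5.3 and Piwil2 at 42.2 ± 17.2 and 42.7 ± 3.08 per kb.

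KO and WT cells were compared stage by stage. In MEFs, 0 of 9 members were called, against 0.0190% of all genes (4 of 21020), with 1 member at an unadjusted p under 0.05 in DESeq2 (Piwil2) and 0 calls with edgeR. The counts on the days used to select Piwil2 were 1 of 7 members with an FDR at D3 against 0.162%, 1 of 7 at D5 against 1.19% and 6 of 9 at D7 against 8.37%. The first 2 were Piwil2, and at D7 Piwil2, Tdrd12, Ddx4 and Mael were higher and Tdrd5 and Tdrd9 lower, and nothing is read from these counts. Mael at D7 had 0 to 3.63 normalised counts in KO and 0 in WT, which gives no fold.

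In iPSCs, 3 of 9 members were called, Piwil2, Tdrd9 and Mael, all higher in KO, against 4.51% of all genes tested, of which 831 were higher and 117 lower in KO. The other 6 had log2FC from -0.48 (Tdrd5) to 0.57 (Tdrd12). The median log2FC over the 9 members was 0.50, against 0.02 over all genes tested, and 6 of 9 were above 0. In ESCs, 1 of the 7 members with an FDR was called, Mael, against 1.21%, with a median of 0.17 over the 9 members against 0.00 over all genes. The log2FC of the members not called in ESCs ran from -0.32 (Tdrd1) to 0.81 (Piwil2). KO and WT ESC libraries did not overlap for Piwil2, Tdrd9, Tdrd12 and Mael. The lowest KO over the highest WT library was 1.48-fold for Piwil2 and 1.86-fold for Mael. It was only 1.02-fold for Tdrd9, which had no FDR, and 1.005-fold for Tdrd12 (FDR 0.6). The share of all genes that separated in this way was not counted, so nothing is read from it. The KO to WT difference in iPSCs was compared with that in ESCs in an interaction contrast, in which 0 of 7 members with an FDR were called, against 0.590% of all genes, with 0 at an unadjusted p under 0.05 in DESeq2 and 0 with edgeR.

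**Figure D3:**
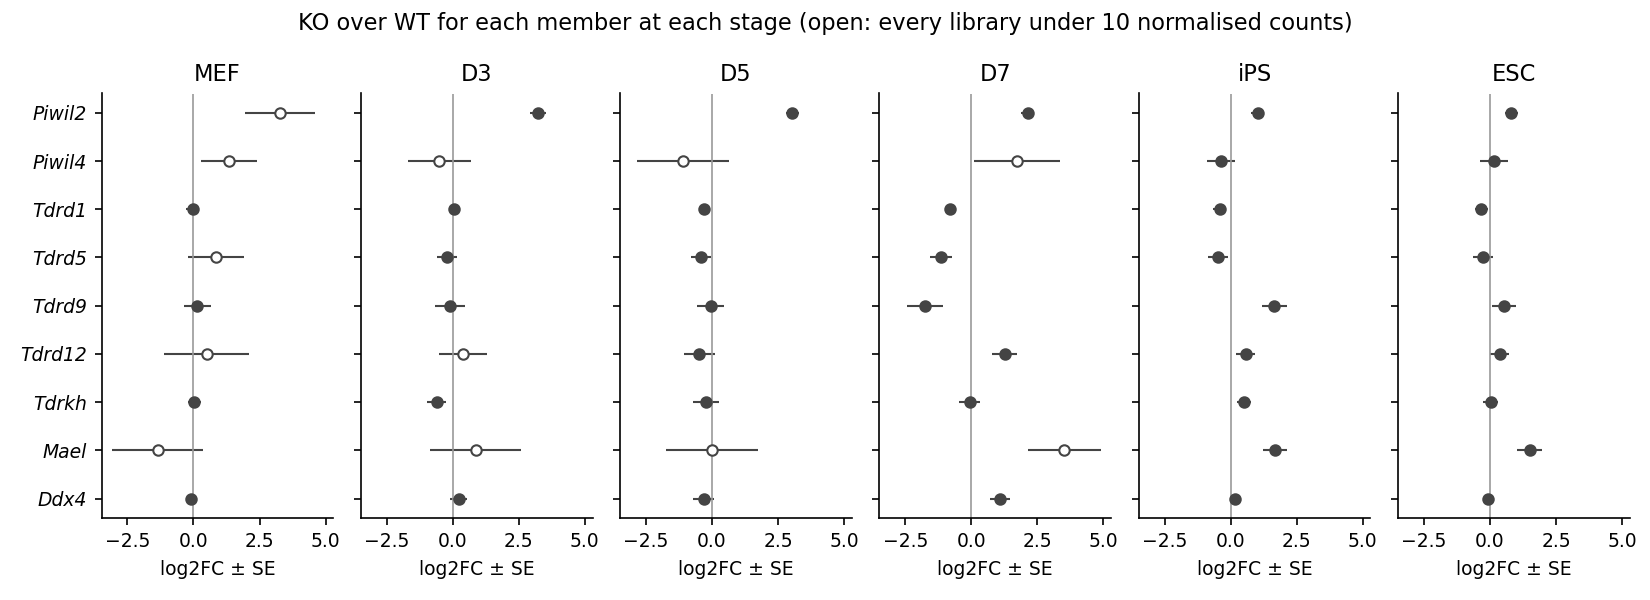
Log2FC of KO over WT for each of the 9 members at each stage, with standard errors as bars, from the DESeq2 fit of all 36 libraries. Open points mark genes with every library under 10 normalised counts. Piwil2 was above 0 at every stage, whereas Tdrd1 and Tdrd5 were below 0 at D7. The Piwil2 value in MEFs (3.27 ± 1.32) rested on 3, 0 and 4 reads in KO and 0 in WT (FDR 0.527).

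A further 23 pathway genes, none of them a member, were listed by their known roles, and all were in the count table. Of these, 0 of 18 with an FDR were called in KO against WT at D3 and 0 of 23 in MEFs, against 0.162% and 0.0190% of all genes. At shares this low a list of this size would hold few or no calls, so nothing is read from these counts. The count at an unadjusted p under 0.05 was 2 with DESeq2 in each case, Dnmt3l and Spocd1 at D3, Exd1 and Stk31 in MEFs, and edgeR called 0 in both. At D5 1 of 21 with an FDR was called (against 1.19% of all genes), Morc1, a factor of transposon silencing. Morc1 held 13.6, 26.8 and 25 in WT and 36.2, 57.7 and 47 in KO (log2FC 1.11 ± 0.29, FDR 0.00497). It was not called by edgeR (FDR 0.0696), nor in fits without D5 WT replicate 1 or D5 KO replicate 2 (FDR 0.0911 and 0.069).

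At D7 6 of 23 were called, 4 higher and 2 lower in KO (26.1%, against 8.37% of all genes). Dnmt3l, the catalytically inactive partner of the DNA methyltransferases, was at 39.6, 126 and 22.6 in WT and 1201, 1186 and 713 in KO cells, the KO libraries all above WT (log2FC 4.04 ± 0.46, FDR 2.48e-16). Morc1 held 90.3, 125 and 94.7 in WT and 546, 622 and 370.4 in KO (log2FC 2.31 ± 0.22, FDR 3.13e-23), and Dnmt3c, which methylates young transposons, 12.2, 21.1 and 19.5 and 69.3, 92.8 and 83.5 (log2FC 2.22 ± 0.38, FDR 8.15e-08). The fourth gene higher in KO was Pnldc1 (log2FC 1.21), the nuclease that trims piRNA ends, and Henmt1, which methylates them, and Tdrd6 were lower (log2FC -1.61 and -1.11). Pnldc1, Henmt1 and Tdrd6 are named at D7 after their values were seen. Dnmt3l, Pnldc1 and Henmt1 share 67, 144 and 392 exon bases with genes of the opposite strand. Dnmt3l and Morc1 also rose in WT between D5 and D7 (log2FC 5.21 ± 0.79 and 2.25 ± 0.28, FDR 2.79e-09 and 1.94e-13).

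In iPSCs 6 of 23 were called, all higher in KO (26.1%, against 4.51%, most of these also higher in KO), and 19 of 23 had a log2FC above 0, with a median of 0.59 over the list (0.68 over the 22 genes above the floor) against 0.02 over all genes. Stk31, a Tudor domain protein of germ cells, went from 212, 160.2 and 168 in WT to 555, 449 and 412 in KO (log2FC 1.39 ± 0.18, FDR 1.94e-12). Gtsf1, a partner of PIWI proteins in slicing, was at 19.9, 24.1 and 25.1 in WT and 109.8, 54.7 and 51.5 in KO (log2FC 1.65 ± 0.43, FDR 0.00232), and Gpat2, a mitochondrial protein of primary piRNA processing, at 62.2, 90.4 and 99.3 and 208, 198 and 314 (log2FC 1.51 ± 0.34, FDR 0.000308). All 3 separated without overlap between clones of the 2 genotypes. In ESCs 2 of 18 with an FDR were called (11.1%, against 1.21%), Stk31 with 229, 215 and 226 in WT and 403, 515 and 427 in KO (log2FC 1.01 ± 0.17, FDR 1.46e-06), and Rnf17, a Tudor protein that limits piRNA amplification, with 1789, 1795 and 1715 and 3951, 3802 and 3379 (log2FC 1.07 ± 0.30, FDR 0.00827). Stk31 in ESCs lay at the fold threshold and dropped below it without ESC WT replicate 2 (0.98), without ESC KO replicate 2 (0.89) and when only the compared groups were fitted (0.995).

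**Figure D4:**
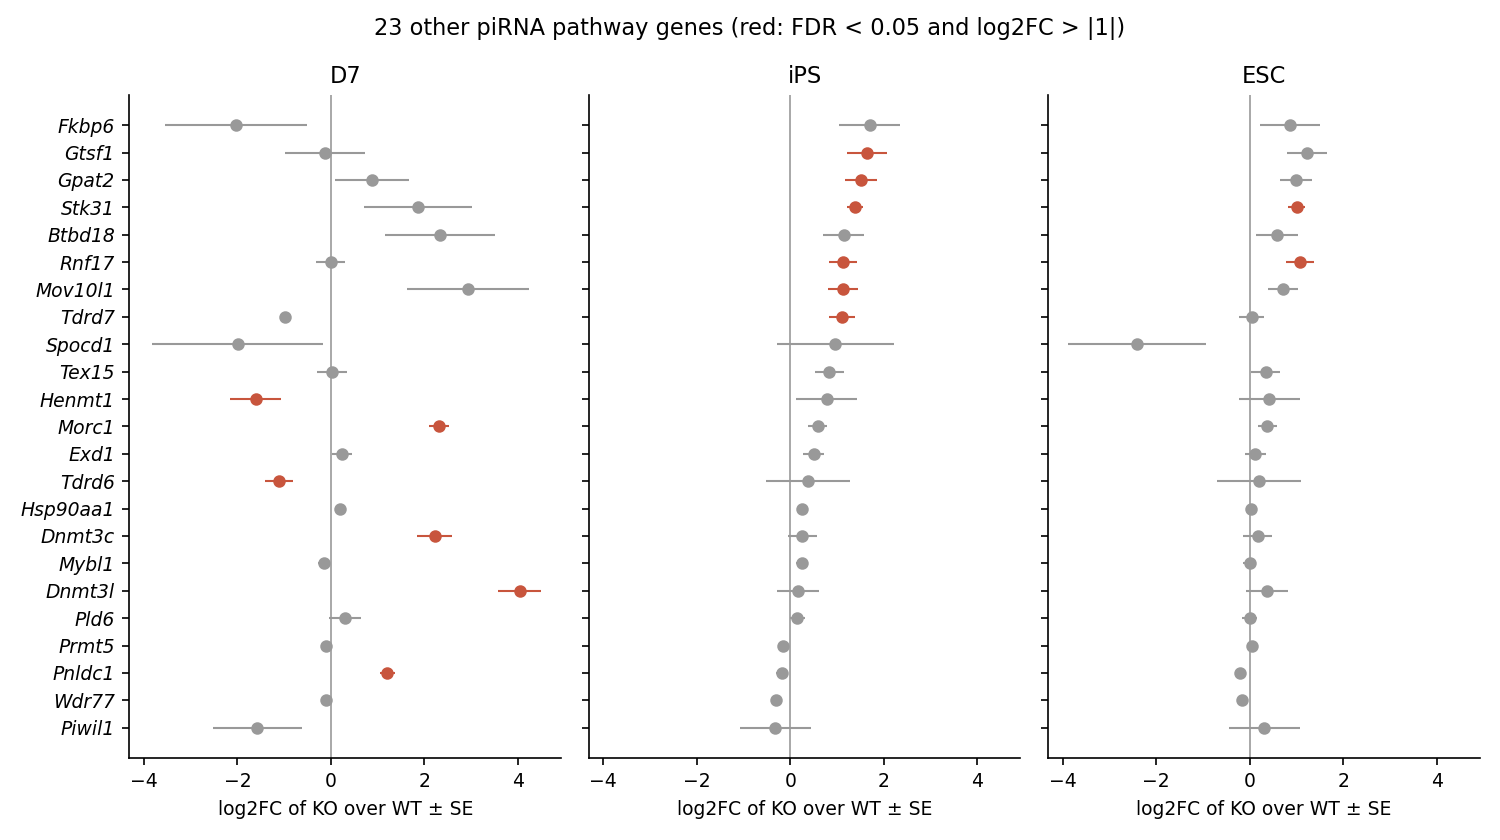
Log2FC of KO over WT of the 23 other pathway genes at D7, in iPSCs and in ESCs, 1 point per gene with its standard error and called genes in red. At D7 calls lay on both sides of 0, and in iPSCs and ESCs all calls were higher in KO.

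In WT cells most of the 23 pathway genes were higher in pluripotent cells. From MEFs to D3 13 of 23 were called, 9 up and 4 down (56.5%, against 44.9% of all genes), from D7 to iPSCs 18 of 23, 15 up and 3 down (78.3%, against 45.0%), and between MEFs and ESCs 19 of 23, 16 higher in ESCs (82.6%, against 55.4%). Stk31 went from 1.01, 1.01 and 0 at D7 to 212, 160.2 and 168 in WT iPSCs, a ratio of 266 with a counting interval from 73.3 to 2200 (FDR 2.57e-14). Dnmt3l went from 39.6, 126 and 22.6 to 9289.7, 12762 and 9909 (log2FC 7.41 ± 0.46, FDR 4.91e-57). Mov10l1, the helicase that carries piRNA precursors, went from 0, 1.01 and 0 to 59.6, 37 and 79.8, with 1 read in the WT D7 libraries together (FDR 5.02e-09). Tdrd6, a Tudor protein of spermatid granules, ran the other way: it rose from MEFs to D3 (log2FC 5.71 ± 0.59, FDR 1.73e-21), fell from D3 to D5 (log2FC -1.15 ± 0.24, FDR 1.8e-05) and stood at 45.6, 37.3 and 42.2 at D7 and 0.864, 2.58 and 0.928 in iPSCs. From D3 to D5 2 of 23 were called (Tdrd6 and Tex15, both down, against 6.77%). Tex15 missed the fold threshold without D5 WT replicate 1 (log2FC -0.98) or without D5 WT replicate 3 (-0.99). From D5 to D7 3 of 22 with an FDR were called (against 5.81%), of which Henmt1, lower at D7, was lost without D7 WT replicate 2 (FDR 0.0787). Between ESCs and iPSCs 0 of 10 were called (against 0.275%), with 1 gene at an unadjusted p under 0.05 in DESeq2 (Tdrd7) and 0 calls with edgeR.

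Argonaute genes, which load microRNAs and not piRNAs, were compared as the nearest relatives of Piwil2 and Piwil4. In KO against WT, 0 of 4 Argonaute genes were called at any stage with DESeq2 or with edgeR. The share of all genes called with DESeq2 ran from 0.0190% in MEFs to 8.37% at D7. A list of 4 genes would hold few or no calls at such shares, so nothing is read from this count. At an unadjusted p under 0.05, DESeq2 had 1 gene at D7 (Ago1), 1 in iPSCs (Ago4) and 1 in ESCs (Ago2) and 0 at the other stages, and edgeR had the same counts. Ago1 at D7 (log2FC -0.39, FDR 0.0173) and Ago2 in ESCs (0.45, FDR 0.00462) passed the FDR and missed only the fold threshold. In WT cells Ago1 rose from MEFs to D3 (log2FC 1.42 ± 0.14, FDR 3.63e-25) and Ago4 fell from D7 to iPSCs (log2FC -2.26 ± 0.38, FDR 6.3e-09). Ago2 stood at 875 ± 85.5 normalised counts per kb in WT D7 cells and at 405 ± 68.7 in WT ESCs, above the per kb levels of Piwil2 in the same groups, 106 ± 25.2 and 42.7 ± 3.08.

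Genes near Piwil2 were examined for a regional difference. Of the 15 genes of the table that start within 250 kb of the Piwil2 start, 0 of 14 with an FDR were called at D3 and 0 of 15 at D5. The shares of all genes were 0.162% and 1.19%. Shares this low leave few calls for any list of this size, so the counts do not test for a regional difference. At an unadjusted p under 0.05 DESeq2 had 1 of them at D3 (Dmtn) and 5 at D5 (Bmp1, Dmtn, Lgi3, Phyhip and Slc39a14), and edgeR called 0 on both days. Of these, Phyhip (log2FC -0.39, FDR 0.00497), Bmp1 (-0.56, FDR 0.0057) and Slc39a14 (0.47, FDR 0.0386) passed the FDR at D5 and missed only the fold threshold. The nearest, Polr3d, a subunit of RNA polymerase III that starts 14.1 kb upstream, held 3173, 2757 and 2984 in WT and 3137, 2713 and 2928 in KO at D3 (log2FC -0.02 ± 0.11), and its log2FC was -0.0032 at D5. At D7 2 of 15 were called, both lower in KO (13.3%, against 8.37% of all genes), Phyhip with 699, 664 and 777 and 306, 291 and 328 (log2FC -1.21 ± 0.11, FDR 5.73e-26) and Lgi3 (log2FC -1.59 ± 0.37, FDR 0.000166). Slc39a14, a zinc transporter gene 78.0 kb downstream, had a log2FC of 0.61 ± 0.15 at D7 (FDR 0.000658), below the fold threshold. Sorbs3, also higher in KO at D7, likewise passed only the FDR (log2FC 0.80, FDR 0.00496). Lower in KO at D7 and past the FDR alone were Bmp1 (-0.90, FDR 7.01e-08), Dmtn (-0.68, FDR 0.0296), Hr (-0.52, FDR 0.0452), Polr3d (-0.37, FDR 0.00516) and Nudt18 (-0.37, FDR 0.00724).

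**Figure D5:**
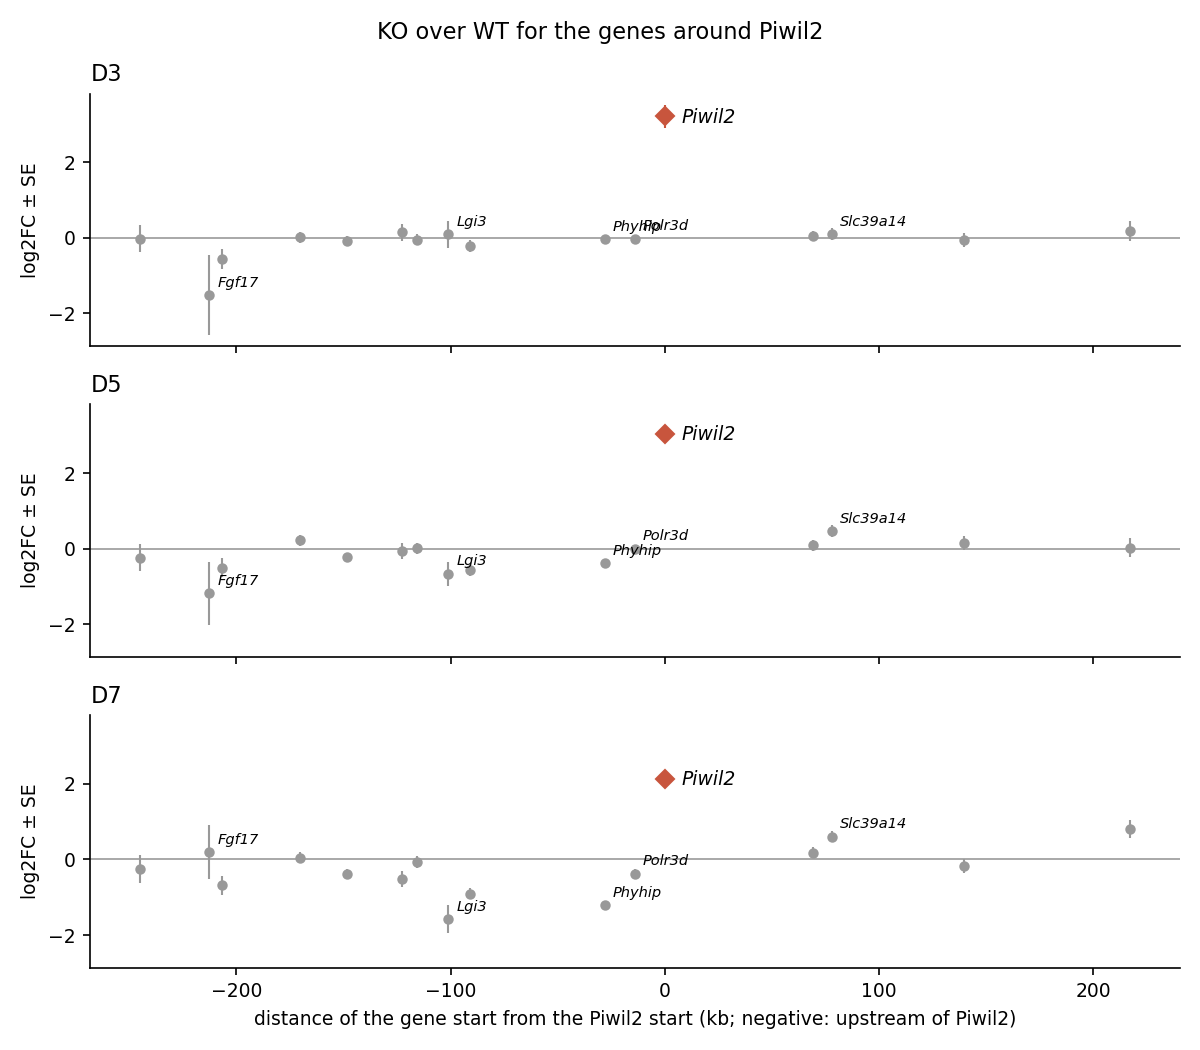
Log2FC of KO over WT at D3, D5 and D7 for Piwil2 and the 15 genes starting within 250 kb of it, by distance of the start from the Piwil2 start in kb. Piwil2 stood alone above 1 on all 3 days, but it was selected on its difference on these days, so its place here is only a description.

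Over the 12 group means of log2(normalised count + 1), the 10 genes whose courses were most like Piwil2, among 18424 with an overall mean of at least 10, included Bst2, 2810025M15Rik, C130073F10Rik, Prelid2, Enox2, Iars2, Mindy1, Ocln and Dsg2, with Pearson r from 0.976 to 0.955. The points share libraries and the WT to KO differences at D3 to D7. No other member was among these 10: r was 0.737 for Tdrd5, 0.472 for Tdrd12, 0.281 for Mael, 0.263 for Tdrd1, 0.086 for Piwil4, -0.243 for Tdrd9, -0.407 for Ddx4 and -0.733 for Tdrkh.

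Pluripotency, fibroblast and germ cell markers moved with some of these stages. The summed level of 10 pluripotency genes was 13539.8 to 17276 in WT and 31497 to 37852 in KO at D7, with 8 of 10 called higher (against 8.37% of all genes called at D7), and 8 of 10 were also called higher at D5 (against 1.19%). At D3 the sums were 6458 to 6801 in WT and 5799.5 to 6607 in KO, with 1 of 10 called, Utf1, lower (against 0.162%), while 7 of 10 had a log2FC above 0 and the median was 0.42. In iPSCs and ESCs 0 of 10 were called with DESeq2 or edgeR, with 2 (Nanog and Tdh) and 1 (Tdh) at an unadjusted p under 0.05 in DESeq2. Fibroblast genes summed to 26005 to 38349 in WT and 8785 to 24501 in KO at D7, with 2 of 10 called, Col1a1 and Col5a1, both lower. In iPSCs they summed to 310.0 to 422 in WT and 434 to 501 in KO, without overlap, with 8 of 10 above 0, a median log2FC of 0.59 and 1 of 10 called, Col1a2, higher in KO (against 4.51%). In ESCs the sums were 359 to 406 and 346 to 373, with Col1a1 called higher and Col6a1 lower (against 1.21%). Of 15 listed germ cell genes 12 were in the table, and their sum at D7 was 827 to 1084 in WT, with Dazl, Tex101 and Hormad1 at 0, and 1678 to 1975 in KO, with 4 of 11 with an FDR higher in KO (Dazl, Dnd1, Hormad1 and Nanos3, against 8.37%). In iPSCs it was 2427 to 5511 in WT and 4160.4 to 6139.9 in KO, with 4 of 11 with an FDR higher in KO (Hormad1, Sohlh2, Stra8 and Taf7l, against 4.51%), and in ESCs 4876 to 5253 and 5864 to 7036, with 1 of 9 called, Hormad1, higher in KO (against 1.21%). The part of these markers in the differences of members and pathway genes was not tested.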

How the data were processed

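RNA was sequenced from 36 mouse libraries. The authors trimmed single-end 75-base reads with Cutadapt, joined runs of a sample, used STAR to map them to GRCm38 and Rsubread to assign them to genes. The authors deposited whole-number read counts per gene and a normalised signal table, which equals counts over DESeq2 size factors (largest relative difference 9.33e-15). Libraries came from a stranded kit, and the strand setting and the annotation used in counting are not given in the sources used here. The deposited tables of the authors' own comparisons (log2 fold changes, p-values and FDR) were used only for gene names. Library preparation dates, which the authors removed from a log-scale matrix not used here, are not in the labels, so they cannot be told apart from the groups.

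The members and gene lists were chosen with earlier results of these data known. Groups and replicate numbers came from sample titles. DESeq2 1.42.0 in R 4.3.3 was fitted to the counts of all 36 libraries with 1 factor of 12 levels, following the study, using size factors by median ratio, Wald tests and independent filtering at its default. A gene that this filtering left with no FDR did not enter a count of calls. DEGs had a Benjamini-Hochberg FDR < 0.05 over all genes tested and log2FC > |1|. Total counts were 19224103 to 39610939 per library, and a count of 0 allows up to 3 reads at 95% confidence. Floors and counting intervals cover counting error only. Within-group pairs of libraries differed by 3.16 to 103 times the variance of counting, so no library was a copy. The highest values, 99.2 and 103, were those of MEF KO replicate 3 with MEF KO replicates 1 and 2. The latter differed from each other by 4.38, so MEF KO replicate 3 stood apart within its group. Gene positions and exon lengths were taken from GENCODE on GRCm38, and promoter windows from RefSeq on GRCm38.p6. All 10 members were named, with the 4 Argonaute genes, up to 3 pathway DEGs of largest |log2FC| per comparison, genes within 250 kb of the Piwil2 start and the 10 genes of highest Pearson r with Piwil2, of which 1 is not reported here. The germ cell, pluripotency and fibroblast marker lists were fixed with them. Alternatives were edgeR 4.0.16 (quasi-likelihood, TMM), TMM size factors in DESeq2, a low-count filter, no independent filtering, only the compared groups, a replicate block and leaving out each library. The fits were tested on simulated data.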

Additional observations from a re-analysis of the deposited data

Results flagged for a closer look

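Tdrd9 was marked because its KO to WT difference ran in opposite directions at different stages, with no overlap between the libraries of the 2 genotypes. The log2FC was -1.77 at D7, 1.66 in iPSCs and 0.54 in ESCs. At D7 WT libraries held 8.11, 11.1 and 6.17 normalised counts and KO libraries 4.02, 1.75 and 1.82, in iPSCs 8.64, 3.44 and 12.1 and 29, 14.8 and 32.3, and in ESCs 14.1, 11.1 and 13 and 14.4, 24.3 and 17. The difference between D7 and the other stages was not tested. Between iPSCs and ESCs the KO to WT difference of Tdrd9 differed by a log2FC of 1.12 ± 0.66 (SE). Independent filtering left Tdrd9 with no FDR in this contrast, so it could not be called. Each KO library of D7 rests on 2 to 4 reads.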

How the results depend on the processing

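The number of members called as DEGs from WT D3 to D5 was 3, and 1 when only the compared groups were fitted. The number of pathway genes called in KO against WT at D5 was 1, and 0 with edgeR. Leaving out 1 library at a time gave 1 to 3 members from D3 to D5, 7 to 8 from D7 to iPSCs, 0 to 1 between ESCs and iPSCs, 1 to 3 in KO iPSCs (1 without KO replicate 1), 0 to 1 in KO ESCs, and 0 to 1 pathway genes in KO cells at D5, 4 to 9 at D7 (9 without WT replicate 2), 5 to 7 in iPSCs and 1 to 3 in ESCs (3 without KO replicate 1). The same settings left 5 members called from MEFs to D3, 1 from D5 to D7, 6 between MEFs and ESCs and 0 in KO MEFs. No called log2FC changed sign under any of these settings. The 10 genes most like Piwil2 shared 7 with the list at a pseudocount of 10 and 10 with no minimum of the overall mean.

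Low levels limit Piwil4, Tdrd9, Tdrd12 and Mael before the iPSC stage, where single libraries hold few reads and some folds rest on the floor of 3 reads. They also limit Piwil2 and Tdrd5 in MEFs, at 0 to 4 reads per library. Tdrkh and Ddx4 from D3 to D7 had 4 to 25 and 3 to 25 reads per library, and Tdrd9 in iPSCs had 4 to 32.

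Replicate numbers are shared between the genotypes, and 7 of 18 same-numbered WT and KO pairs had correlated deviations above 0.1 (r from -0.12 to 0.287), and 21 of 36 libraries correlated best with the library of their own number. At D3, D5 and D7 all 9 pairs were above 0 and 6 of them above 0.1, whereas MEF and ESC pairs lay near 0. Since not every pair exceeded 0.1 and the labels name no shared culture or day, the numbers were not used as pairs in the main tests. With the replicate number as a block, 3 members were called in KO iPSCs, 1 in KO ESCs and 8 from D7 to iPSCs, as without it, and 5 pathway genes in place of 6 in KO iPSCs, and no other of these counts changed.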
